A study of Homo sapiens with 17 samples.

Results

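The 10 genes described here encode the RNA cytosine-5 methyltransferases NOP2, NSUN2, NSUN3, NSUN4, NSUN5, NSUN6, NSUN7 and TRDMT1, and the proteins ALYREF and YBX1, which bind methylated cytosines in RNA. They were taken by symbol from a list chosen with earlier results of these data known. All 10 were found among the 63187 genes of the RNA count table. Of the 58372 ATAC peaks with counts, 17 carried one of these symbols in the deposited annotation. The samples were HepG2 cells, an established human hepatocellular carcinoma line, listed as wild type. They had received 0, 2 or 10 µM 5-azacytidine for 4 days, with fresh medium each day. The 0 µM cells were the control, and no other treatment was listed for any group. RNA-seq had 3 libraries per dose, and ATAC-seq, which counts reads from open chromatin, had 3 at 0 µM, 3 at 2 µM and 2 at 10 µM. All libraries came from 1 cell line, and p-values describe the spread between these libraries.

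The NSUN proteins and TRDMT1 place a methyl group on carbon 5 of cytosine in RNA, and form a short-lived covalent bond between a cysteine of the enzyme and the base. 5-Azacytidine is a ribonucleoside: cells build it into RNA as well as, after reduction, into DNA. An azacytosine in RNA can hold such an enzyme in its covalent state, as an azacytosine in DNA holds a DNA methyltransferase. Each enzyme has its own substrates, which include transfer RNAs, ribosomal RNAs and some mRNAs. Transcripts and open chromatin were measured here. Neither the proteins nor methylation of RNA was.

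Total gene counts ran between 35553052 and 46430168 per RNA library, and counts in peaks between 2896671 and 7864321 per ATAC library. Replicates 1 and 2 at 2 µM had the fewest counts in peaks, 2907068 and 2896671, while replicate 3 at 2 µM had 7042886. The part of this in ATAC levels at 2 µM was not tested. Replicate 3 of the 0 µM group and replicate 3 of the 2 µM group stood apart in RNA: mitochondrial mRNAs took 0.271% and 0.231% of their counts, against at most 0.143% in the other libraries. The 10 hepatocyte markers listed were all detected. Their summed level was 37230 to 62370 CPM (counts relative to the scaled total of a library) at 0 µM, 18010 to 30580 CPM at 2 µM and 1389 to 2209 CPM at 10 µM. PTPRC, which defines leukocytes, and CFTR, a bile duct gene, had 0 counts at every dose. The 6 fibroblast markers summed to at most 24.4 CPM and the 6 endothelial markers to at most 10.6 CPM in any library. The 6 leukocyte markers followed LYZ alone, which averaged 2747, 1340 and 73.4 CPM at 0, 2 and 10 µM. The 5 bile duct markers summed to 388 to 508, 498 to 982 and 495 to 1192 CPM at 0, 2 and 10 µM. KRT19 among them averaged 187, 533 and 843 CPM at these doses, EPCAM 151, 156 and 61.8 CPM, and SOX9 92.4, 55.3 and 38.5 CPM, while KRT7 stayed under 1 CPM. The part of the lower hepatocyte levels and of the unlike changes among bile duct markers in the results below was not tested. In bulk samples, fewer cells of a type and less RNA per cell cannot be told apart.

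The drug is known for removing cytosine methylation at CpG dinucleotides in DNA, so the DNA just before the start of the genes is shown with each CpG in capitals. Windows of 300 bases around the start were held for 9 of the 10 genes (RefSeq, GRCh38.p14). The stretches printed are the 250 bases before the start, 5′ to 3′ on the gene's strand. They were chosen for the 2 genes with the largest RNA rise, the gene whose RNA fell, the gene with hardly any reads and the gene with the most CpGs. NSUN5 lies at chr7:73308827-73309076 (minus strand, 20 CpGs) and TRDMT1 at chr10:17201673-17201922 (minus strand, 16 CpGs). The NSUN6 stretch is the one of its 2 starts that lies farther upstream, at chr10:18659239-18659488 (minus strand, 26 CpGs). NSUN7 lies at chr4:40749705-40749954 (plus strand, 21 CpGs) and ALYREF at chr17:81891588-81891837 (minus strand, 43 CpGs).
NSUN5: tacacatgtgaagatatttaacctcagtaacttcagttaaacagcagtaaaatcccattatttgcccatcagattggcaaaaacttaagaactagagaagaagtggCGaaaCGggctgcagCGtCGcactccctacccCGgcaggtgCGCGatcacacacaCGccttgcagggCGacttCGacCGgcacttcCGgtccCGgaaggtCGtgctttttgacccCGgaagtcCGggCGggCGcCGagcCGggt
TRDMT1: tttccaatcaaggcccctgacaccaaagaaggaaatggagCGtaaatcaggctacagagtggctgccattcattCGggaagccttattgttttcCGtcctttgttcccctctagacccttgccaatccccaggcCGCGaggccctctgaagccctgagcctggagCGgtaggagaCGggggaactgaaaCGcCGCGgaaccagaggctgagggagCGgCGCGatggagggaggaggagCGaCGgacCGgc
NSUN6: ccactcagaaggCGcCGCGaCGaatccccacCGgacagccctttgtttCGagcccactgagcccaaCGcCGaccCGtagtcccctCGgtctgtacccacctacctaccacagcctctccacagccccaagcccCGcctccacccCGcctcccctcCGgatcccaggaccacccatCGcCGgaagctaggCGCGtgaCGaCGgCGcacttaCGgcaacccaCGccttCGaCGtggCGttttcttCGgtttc
NSUN7: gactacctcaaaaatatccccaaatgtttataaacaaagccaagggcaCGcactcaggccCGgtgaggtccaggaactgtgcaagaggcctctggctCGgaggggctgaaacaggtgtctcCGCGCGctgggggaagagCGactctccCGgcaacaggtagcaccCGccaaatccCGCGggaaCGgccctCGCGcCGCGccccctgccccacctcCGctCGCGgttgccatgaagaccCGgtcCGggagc
ALYREF: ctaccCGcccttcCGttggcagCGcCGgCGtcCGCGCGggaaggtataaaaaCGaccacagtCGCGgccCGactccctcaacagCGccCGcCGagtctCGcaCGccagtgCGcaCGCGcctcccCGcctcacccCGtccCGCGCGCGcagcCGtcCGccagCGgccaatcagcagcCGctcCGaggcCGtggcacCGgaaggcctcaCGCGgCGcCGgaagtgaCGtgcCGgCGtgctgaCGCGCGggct
The 12 windows of the 9 genes held 18 to 50 CpGs per 300 bases. The median of the 22199 windows of protein-coding genes was 21, with quartiles of 7 and 31. NSUN7, which was hardly read, had 25 CpGs in its window, as had NSUN5, whose RNA was 2.19-fold higher at 10 µM than at 0 µM.

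At 10 µM against 0 µM, RNA of 5 of the methyltransferases rose and RNA of 1 fell. NSUN2, NSUN3, NSUN4, NSUN5 and TRDMT1 were 1.55-fold to 2.25-fold higher, and NSUN6 was at 0.631 of its 0 µM level. Of the 10 genes, 9 passed the filter on low counts and were tested, so the count was 5 higher and 1 lower of 9. Among all 18999 genes tested, 23% were called higher and 25.1% lower. A gene was called when its adjusted p in edgeR's quasi-likelihood test was under 0.05. The median log2 change was 0.76 over the 9 genes and -0.02 over all genes tested. The 9 genes include NOP2, whose few counts are not read here as its RNA level.

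**Figure D1:**
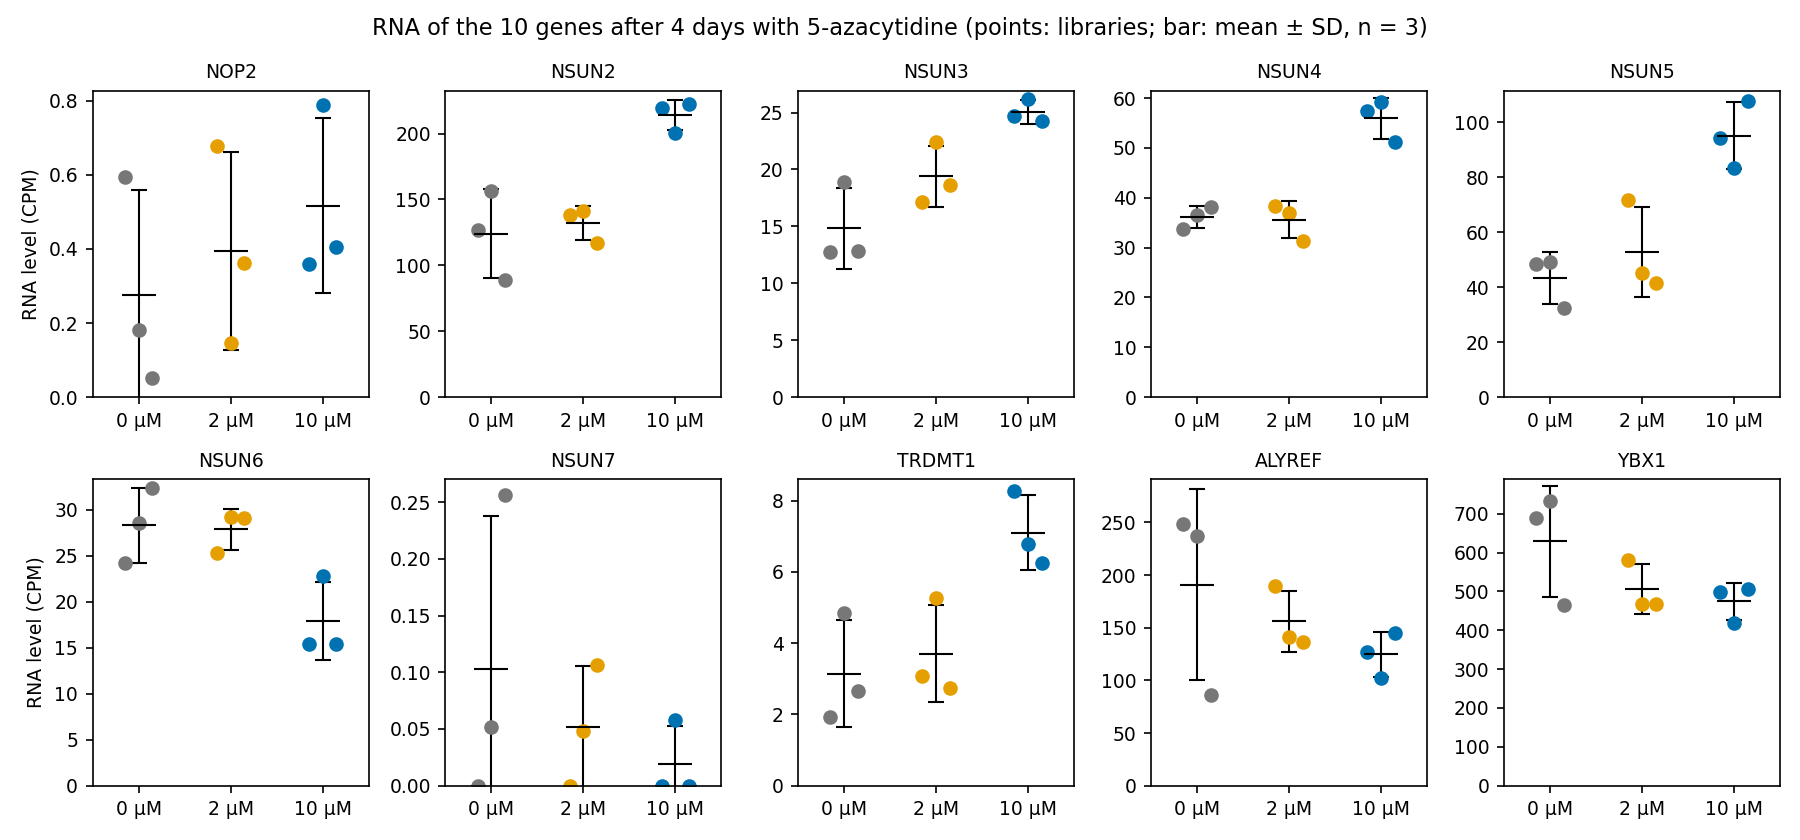
RNA level in CPM of each of the 10 genes at 0, 2 and 10 µM 5-azacytidine; each point is 1 library and the bars are mean ± SD of 3 libraries, on a linear axis from 0 of its own in each panel. NSUN2, NSUN3, NSUN4, NSUN5 and TRDMT1 have all 3 points at 10 µM above all points at 0 µM, NSUN6 has them below, and NOP2 and NSUN7 stay under 1 CPM. How often doses lie apart like this over all genes tested was not counted.

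NSUN2 methylates many transfer RNAs and a set of mRNAs. Its RNA was 127, 156 and 89.0 CPM at 0 µM, 138, 141 and 117 CPM at 2 µM, and 219, 201 and 222 CPM at 10 µM. The 10 µM libraries lay above the highest library of the other doses, which overlapped each other. Mean levels were 214 ± 11.7 CPM at 10 µM and 124 ± 33.7 CPM at 0 µM (SD, n = 3 each). The log2 change was 0.79 (SE 0.21, adjusted p = 0.00683), and the call held in all 16 alternatives tried.

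NSUN5, which methylates the large-subunit ribosomal RNA in the nucleolus, had 48.4, 49.2 and 32.4 CPM at 0 µM, 71.6, 45.3 and 41.5 CPM at 2 µM, and 94.2, 83.3 and 108 CPM at 10 µM. The 10 µM libraries again lay above all others, and 1 library at 2 µM lay above the 0 µM range. The log2 change at 10 µM against 0 µM was 1.13 (SE 0.24, adjusted p = 0.00183), and this call also held in all 16 alternatives. NSUN5 has transcribed copies near it, NSUN5P1 and NSUN5P2. NSUN5P1 had 76 to 86 counts per library at 10 µM and 58 to 250 at 0 µM, and NSUN5P2 had 27 to 52 at 10 µM and 26 to 68 at 0 µM. Counts of all copies came to 6.36% of those of NSUN5 over the 9 libraries, and how reads shared by copies were counted is not known here.

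NSUN3 and NSUN4 work in mitochondria: NSUN3 modifies the anticodon of methionine transfer RNA there, and NSUN4 methylates the small-subunit ribosomal RNA. NSUN4 RNA was 33.7, 36.5 and 38.1 CPM at 0 µM, 38.4, 37.0 and 31.4 CPM at 2 µM, and 57.3, 59.2 and 51.3 CPM at 10 µM. The lower doses overlapped, and the 10 µM libraries stood clear of both, with a log2 change against 0 µM of 0.63 (SE 0.17, adjusted p = 0.00805) that held in all 16 alternatives. NSUN3 RNA was 12.7, 18.9 and 12.8 CPM at 0 µM, 17.2, 22.4 and 18.6 CPM at 2 µM, and 24.7, 26.2 and 24.2 CPM at 10 µM. Its 2 µM libraries lay between, overlapping those at 0 µM but not those at 10 µM. The log2 change at 10 µM against 0 µM was 0.76 (SE 0.22, adjusted p = 0.0111). Without replicate 1 of the 0 µM group it was 0.66 with an adjusted p of 0.051. NSUN3 overlaps DHFR2 in the genome, and DHFR2 RNA averaged 10.9 ± 2.65 CPM at 10 µM and 10.8 ± 0.618 CPM at 0 µM (SD, n = 3 each).

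TRDMT1 resembles the DNA methyltransferases in sequence but methylates the anticodon loop of aspartate transfer RNA. It was a low transcript in these cells, with 1.94, 4.84 and 2.66 CPM at 0 µM, 3.09, 5.26 and 2.75 CPM at 2 µM, and 8.28, 6.78 and 6.25 CPM at 10 µM. The 10 µM libraries did not overlap either lower dose, while the 0 and 2 µM libraries overlapped. The log2 change at 10 µM against 0 µM was 1.17 (SE 0.37, adjusted p = 0.018). The call was lost without replicate 1 of the 0 µM group (log2 0.92, adjusted p = 0.0729) and without replicate 1 of the 10 µM group (log2 1.06, adjusted p = 0.0637).

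NSUN6 methylates the acceptor end of some transfer RNAs, and mRNAs too. Unlike the enzymes above, its RNA was lower at the high dose: 24.2, 28.5 and 32.3 CPM at 0 µM, 25.3, 29.2 and 29.1 CPM at 2 µM, and 15.4, 22.8 and 15.4 CPM at 10 µM. No 10 µM library reached the range of the other doses, although replicate 2 came within 2 CPM of the lowest 0 µM library. The log2 change at 10 µM against 0 µM was -0.66 (SE 0.21, adjusted p = 0.0207). The call was lost without replicate 1 or replicate 3 of the 10 µM group (log2 -0.55 in both, adjusted p = 0.106 and 0.109). It was lost as well when libraries were scaled by total counts alone (log2 -0.40, adjusted p = 0.156), a scaling under which the median of all genes was 0.24 rather than -0.02.

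NOP2, the nucleolar methyltransferase of the large-subunit ribosomal RNA and a gene of growing cells, was close to absent from the count table. It had 2 to 19 counts per library at 0 µM, 6 to 27 at 2 µM and 15 to 41 at 10 µM, so no library passed 1 CPM. It passed the filter on low counts, and its log2 change at 10 µM against 0 µM was 0.94 with an SE of 0.78 (adjusted p = 0.343). Its promoter peak in ATAC-seq was open at every dose, with 29.7 to 31.3 CPM at 0 µM, 24.96 to 33.3 CPM at 2 µM and 32.7 to 33.5 CPM at 10 µM. Whether NOP2 reads were assigned to another feature in the counting was not tested, so its counts are not read here as its RNA level. NSUN7, which is needed for sperm motility in mice, had 12 counts in all at 0 µM, 7 at 2 µM and 3 at 10 µM. It was the 1 gene of the 10 that failed the filter, and 10 of the 12 counts at 0 µM were in replicate 3.

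The readers ALYREF and YBX1 did not pass the test at 10 µM against 0 µM. ALYREF, an adaptor that hands mRNA to the nuclear export receptor, had 248.8, 237 and 86.4 CPM at 0 µM, 190, 142 and 136 CPM at 2 µM, and 127, 102 and 145 CPM at 10 µM. Replicate 3 at 0 µM lay below every other library, while the other 0 µM libraries lay above every other one. YBX1, a cold-shock domain protein that binds and stabilises mRNAs, had 688, 733 and 466 CPM at 0 µM, 581, 469 and 469 CPM at 2 µM, and 498, 420 and 505 CPM at 10 µM. It showed the same split of the 0 µM group, with replicate 3 inside the 10 µM range. The log2 changes at 10 µM against 0 µM were -0.61 (SE 0.32, adjusted p = 0.133) for ALYREF and -0.41 (SE 0.20, adjusted p = 0.114) for YBX1. Neither had an unadjusted p under 0.05, and DESeq2 called neither. Without replicate 3 of the 0 µM group both were called lower, ALYREF at a log2 change of -0.98 (adjusted p = 0.00106) and YBX1 at -0.60 (adjusted p = 0.0114). With no filter on low counts ALYREF was called lower as well (adjusted p = 0.0276). That library also had the highest share of mitochondrial mRNA, and the part of this in its reader levels was not tested. ALYREF shares bases with ANAPC11, whose RNA averaged 45.1 ± 7.32 CPM at 10 µM and 52.5 ± 11.1 CPM at 0 µM (SD, n = 3 each). The 5 higher calls among the methyltransferases were the same number without replicate 3 of the 0 µM group, and the lower calls were then 3: NSUN6, ALYREF and YBX1.

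At 2 µM against 0 µM none of the 9 tested genes was called by edgeR, none passed 0.05 before adjustment, and none was called by DESeq2. Among all genes tested, 3.22% were called higher and 1.06% lower. Of these 18999 genes, 3538 passed 0.05 before adjustment, and DESeq2 called 895 higher and 462 lower. Adjusted p-values ran from 0.374 for NSUN3 to 0.972 for NSUN6, and log2 changes from -0.31 for YBX1 to 0.55 for NOP2. The groups overlapped in each of the 9 genes, and how often they did so over all genes tested was not counted. When replicate numbers entered the 0 and 2 µM fit as a block, again none of the 9 was called, and the share of all genes called lower was 1.77%.

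At 10 µM against 2 µM, a comparison that shares the 10 µM libraries with the first, NSUN2, NSUN4 and NSUN5 were called higher and NSUN6 lower. The background was 16.8% of genes higher and 21.6% lower. Log2 changes were 0.70 for NSUN2 (adjusted p = 0.0176), 0.65 for NSUN4 (adjusted p = 0.00893), 0.85 for NSUN5 (adjusted p = 0.0137) and -0.64 for NSUN6 (adjusted p = 0.0309). The groups did not overlap in any of these genes, nor in NSUN3 and TRDMT1. Of all 18999 genes tested, 9038 had an unadjusted p under 0.05 here, and how many had no overlap was not counted. TRDMT1 missed the threshold at a log2 change of 0.94 (adjusted p = 0.0564) and passed it in 10 of 16 alternatives, DESeq2 among them (adjusted p = 0.0237). NSUN3 was at 0.37 (adjusted p = 0.193). Each of the 4 calls was lost without replicate 3 of the 2 µM group, with adjusted p-values of 0.0813 for NSUN2, 0.0505 for NSUN4, 0.0701 for NSUN5 and 0.0727 for NSUN6. NSUN5 and NSUN6 lost theirs also without replicate 2 of that group (adjusted p = 0.0581 and 0.069). Without replicate 1 or 3 of the 10 µM group the adjusted p was 0.0663 and 0.0709 for NSUN2 and 0.129 and 0.133 for NSUN6, and without replicate 3 it was 0.0665 for NSUN5. Scaling by total counts also ended the NSUN6 call (adjusted p = 0.0745).

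**Figure D2:**
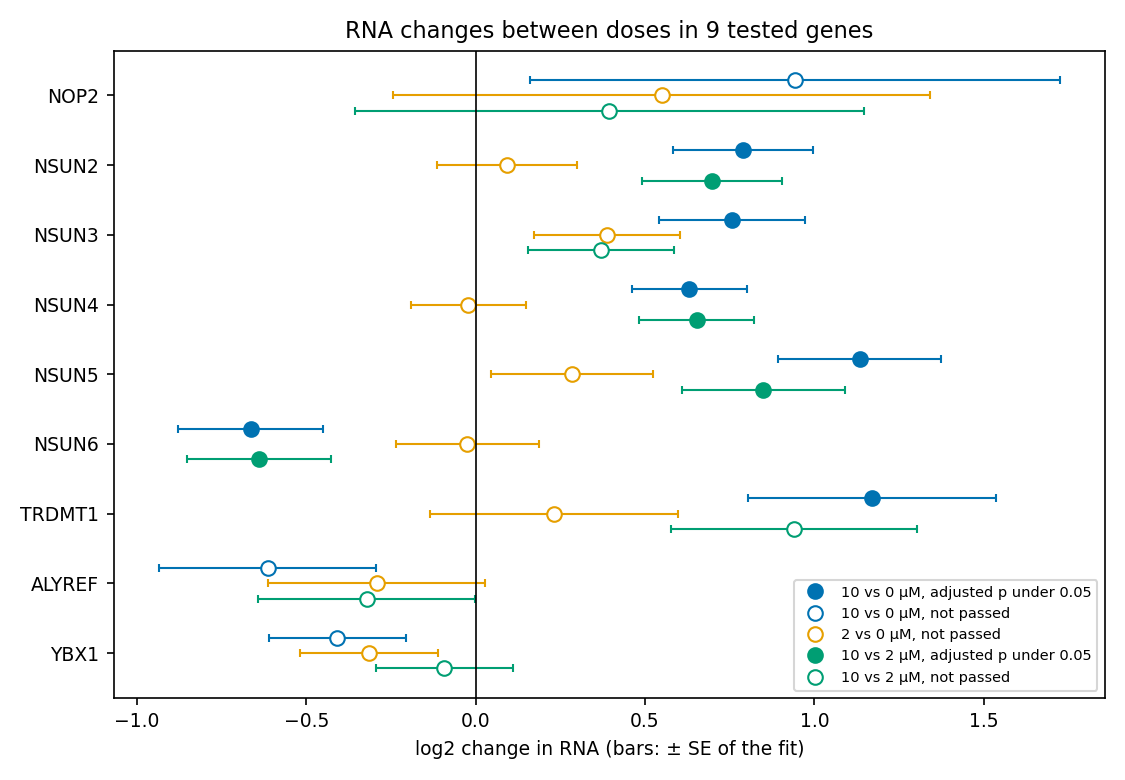
Log2 change in RNA of the 9 tested genes for 10 against 0 µM, 2 against 0 µM and 10 against 2 µM, with bars of ± SE from the edgeR fit; filled points have an adjusted p under 0.05. The 2 against 0 µM points are all open and lie between -0.31 and 0.55, while NSUN5 and TRDMT1 reach 1.13 and 1.17 at 10 against 0 µM and NSUN6 lies at -0.66.

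In open chromatin, 17 peaks carried the symbol of 8 of the genes. Of these, 11 were annotated as promoter, 4 as intron and 2 as distal intergenic, and NSUN3 and NSUN7 had none. At 10 µM against 0 µM, 7 of the 17 were called higher and none lower, against 29.9% of all peaks higher and 27.6% lower. For the lower direction, 2 of the 17 passed 0.05 before adjustment, as did 17052 of all 58372 peaks. DESeq2 called 3 of the 17 higher and none lower, and 14566 and 14939 of all peaks. Among the 11 promoter peaks 4 were called higher, against 20.5% higher and 14.9% lower of all promoter peaks. At 2 µM against 0 µM, 3 of 17 were called higher and 2 lower, with 15.5% and 7.3% of all peaks, and of the promoter peaks 1 was higher and 2 lower, with 7.04% and 5.01% of all promoter peaks. At 10 µM against 2 µM, 9 of 17 were higher and none lower, with 27.5% and 27.6% of all peaks. Of the promoter peaks 6 were then higher, with 24.5% higher and 13.7% lower of all promoter peaks. None of the 17 had an unadjusted p under 0.05 in the lower direction there, and DESeq2 called none lower. Of all 58372 peaks, 17256 had such a p in that direction, and DESeq2 called 14093 lower.

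The largest opening lay upstream of TRDMT1. A peak at chr10:17206298-17206798 (hg38), annotated as distal intergenic at -4244 bases from the start of a TRDMT1 transcript, had 1.70, 1.90 and 2.08 CPM at 0 µM, 4.47, 5.50 and 3.001 CPM at 2 µM, and 17.7 and 16.1 CPM at 10 µM. The 3 doses did not overlap. How often doses lie apart like this over all peaks was not counted, for this peak or for those below. The log2 change was 3.14 at 10 µM against 0 µM (SE 0.28, adjusted p = 1.71e-11) and 2.09 at 10 µM against 2 µM (SE 0.26, adjusted p = 4.99e-08), and both calls held in all 14 alternatives. At 2 µM against 0 µM it was 1.05 (SE 0.34, adjusted p = 0.0239). That call was lost in DESeq2 (adjusted p = 0.0665) and on leaving out any replicate at 0 µM (adjusted p = 0.0605, 0.0837 and 0.0502) or replicate 1 or 2 at 2 µM (adjusted p = 0.0611 and 0.119). The TRDMT1 promoter peak, at chr10:17201189-17201689, averaged 32.6 ± 3.29 CPM at 10 µM (SD, n = 2) and 24.7 ± 1.87 CPM at 0 µM (SD, n = 3). Its log2 change of 0.42 (adjusted p = 0.028) was not called without any one of the 0 µM replicates or without replicate 1 at 10 µM (adjusted p = 0.0508, 0.155, 0.121 and 0.238). The call was lost as well in DESeq2 (adjusted p = 0.109), with replicate numbers as a block (adjusted p = 0.067) and under scaling by total counts (adjusted p = 0.067). It was also lost with only these doses in the fit (adjusted p = 0.0561) and among high-scoring peaks, those with a deposited score at or above the median (adjusted p = 0.132). The promoter peak was called at 10 µM against 2 µM, at 0.46 (adjusted p = 0.0208), and not without replicate 1 at 10 µM or replicate 1 at 2 µM (adjusted p = 0.137 and 0.109), in DESeq2 (adjusted p = 0.0531), with the replicate block (adjusted p = 0.0581), under total counts (adjusted p = 0.0581) or among high-scoring peaks (adjusted p = 0.154).

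A second opening lay beyond the end of ALYREF, a gene whose RNA was not called higher at any dose. The peak at chr17:81886106-81886606, annotated as distal intergenic at 2381 bases from the start of an ALYREF transcript, had 9.22, 5.30 and 8.52 CPM at 0 µM, 17.2, 18.9 and 18.6 CPM at 2 µM, and 32.7 and 35.7 CPM at 10 µM. Each dose lay above the one before without overlap. The log2 change was 1.30 at 2 µM against 0 µM (adjusted p = 1.06e-05), 2.198 at 10 µM against 0 µM (adjusted p = 1.15e-11) and 0.90 at 10 µM against 2 µM (adjusted p = 6.12e-05), and these calls held in all 15 alternatives. At the ALYREF start itself the peak at chr17:81891428-81891928 averaged 40.4 ± 5.81, 28.4 ± 3.85 and 37.6 ± 11.7 CPM at 0, 2 and 10 µM (SD, n = 3, 3 and 2). It was called lower at 2 µM against 0 µM (log2 -0.49, adjusted p = 0.0248). Without replicate 2 at 0 µM, or without replicate 1 or 2 at 2 µM, the adjusted p was 0.118, 0.113 and 0.0769. At 10 µM it was not called against either lower dose, but without replicate 1 at 10 µM it was called lower than at 0 µM (log2 -0.49, adjusted p = 0.0388). Without replicate 2 at 10 µM, or replicate 3 at 2 µM, it was called higher at 10 µM than at 2 µM (adjusted p = 0.00297 and 0.0381). The neighbouring promoter peak, at chr17:81890735-81891235, averaged 7.42 ± 0.584, 6.42 ± 0.869 and 11.1 ± 1.84 CPM at 0, 2 and 10 µM (SD, n = 3, 3 and 2). Its log2 change was 0.57 at 10 µM against 0 µM (adjusted p = 0.0336) and 0.73 at 10 µM against 2 µM (adjusted p = 0.0116). Without replicate 2 at 10 µM the adjusted p was 0.313 and 0.111 in these comparisons, and the first call was also lost without any one of the 0 µM replicates (adjusted p = 0.0726, 0.145 and 0.0705), in DESeq2 (adjusted p = 0.148), under DESeq2's size factors or total counts (adjusted p = 0.0502 and 0.0644) and with only these doses (adjusted p = 0.0612).

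**Figure D3:**
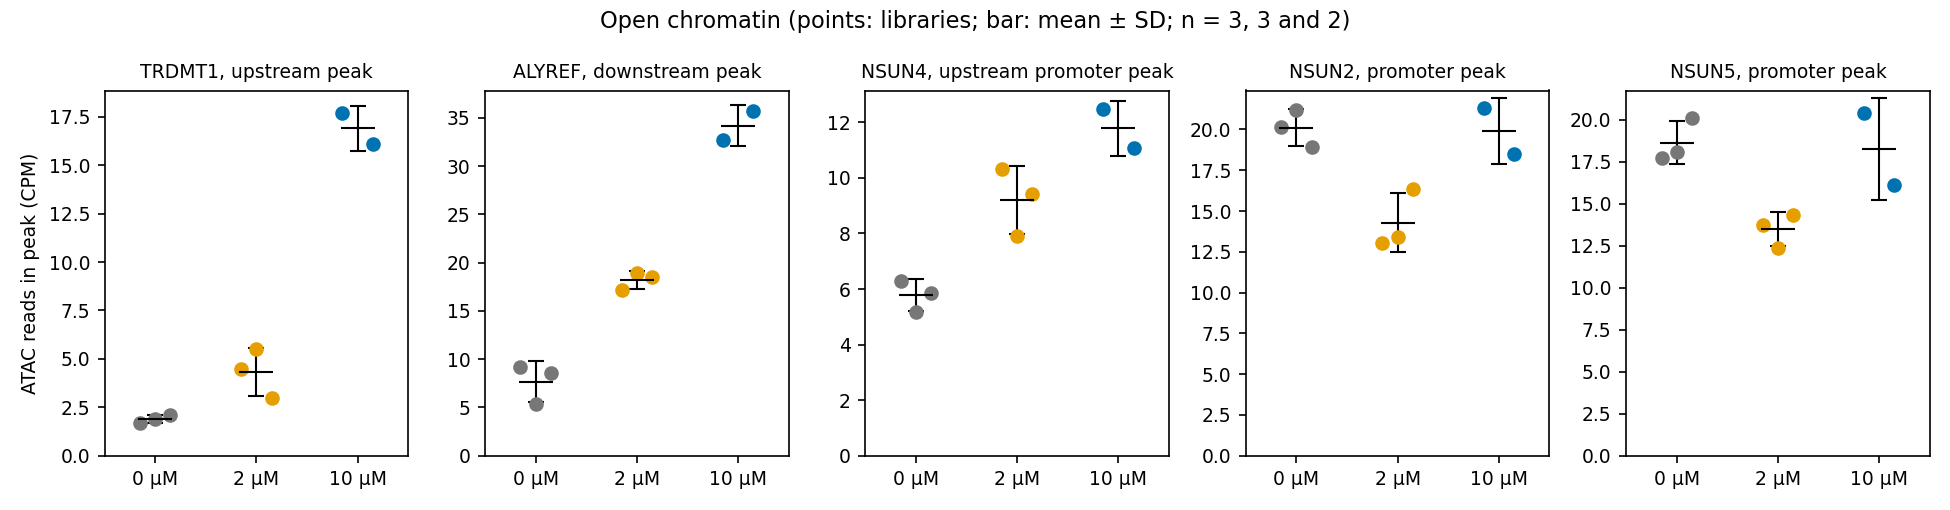
ATAC reads in 5 peaks, in CPM, at 0, 2 and 10 µM; each point is 1 library and the bars are mean ± SD of 3, 3 and 2 libraries, on a linear axis from 0 of its own in each panel. The peaks upstream of TRDMT1 and downstream of ALYREF step up with each dose, the NSUN4 peak lies highest at 10 µM, and the NSUN2 and NSUN5 promoter peaks at 10 µM lie in or next to their 0 µM range.

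NSUN4 had the promoter with the clearest gain. Its peak at chr1:46339898-46340398, upstream of the start, had 6.31, 5.17 and 5.87 CPM at 0 µM, 10.3, 7.91 and 9.41 CPM at 2 µM, and 12.5 and 11.1 CPM at 10 µM. No dose overlapped another. The log2 change at 10 µM against 0 µM was 1.05 (SE 0.23, adjusted p = 0.000176) and held in all 15 alternatives. At 2 µM against 0 µM it was 0.70 (adjusted p = 0.0254). Without replicate 2 or 3 at 0 µM, or replicate 1 or 3 at 2 µM, the adjusted p was 0.144, 0.0725, 0.0705 and 0.0939, and in DESeq2 it was 0.127. The peak over the NSUN4 start, at chr1:46340427-46340927, averaged 24.9 ± 3.86 CPM at 10 µM (SD, n = 2) and 18.3 ± 1.18 CPM at 0 µM (SD, n = 3), a log2 change of 0.45 (adjusted p = 0.0213). Its log2 change at 10 µM against 2 µM was 0.42 (adjusted p = 0.0388), and without replicate 1 at 10 µM, replicate 1 or 2 at 2 µM, or replicate 2 or 3 at 0 µM it was not called (adjusted p from 0.0501 to 0.348). An intronic NSUN4 peak at chr1:46347993-46348493 averaged 21.95 ± 1.25 CPM at 10 µM (SD, n = 2) and 15.8 ± 1.78 CPM at 0 µM (SD, n = 3), a log2 change of 0.46 (adjusted p = 0.0201). The start peak was not called without any one of the 0 µM replicates or without replicate 1 at 10 µM (adjusted p = 0.112, 0.0667, 0.0728 and 0.345), nor the intronic peak without replicate 1 or 2 at 0 µM or replicate 2 at 10 µM (adjusted p = 0.117, 0.0861 and 0.155). In DESeq2 the start peak had an adjusted p of 0.109 at 10 µM against 0 µM and 0.106 at 10 µM against 2 µM, and the intronic peak 0.0949 at 10 µM against 0 µM, so none was called. Among high-scoring peaks these were 0.102, 0.238 and 0.0991. The start peak also lost its calls under total counts (adjusted p = 0.053 against 0 µM and 0.104 against 2 µM), and the one against 2 µM with only these doses (adjusted p = 0.0656).

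At NSUN2 and NSUN5 the RNA rose while the promoter peak at 10 µM was near its 0 µM level. The NSUN2 peak, at chr5:6632801-6633301, had 20.1, 21.2 and 18.9 CPM at 0 µM, 13.1, 13.4 and 16.4 CPM at 2 µM, and 21.3 and 18.5 CPM at 10 µM. The NSUN5 peak, at chr7:73308562-73309062, had 17.7, 18.1 and 20.1 CPM at 0 µM, 13.8, 12.4 and 14.3 CPM at 2 µM, and 20.4 and 16.1 CPM at 10 µM. In both, the 2 µM libraries lay below all others and the 0 and 10 µM libraries overlapped. Replicates 1 and 2 at 2 µM, the ATAC libraries with the fewest counts in peaks, lay below replicate 3 at both peaks. The part of depth in this was not tested. The log2 changes at 10 µM against 0 µM were -0.01 for NSUN2 (SE 0.17, adjusted p = 0.978) and -0.01 for NSUN5 (SE 0.17, adjusted p = 0.96). At 2 µM against 0 µM they were -0.46 (adjusted p = 0.0434) and -0.45 (adjusted p = 0.0545). The NSUN2 call at 2 µM was lost without replicate 2 at 0 µM (adjusted p = 0.122) or replicate 1 or 2 at 2 µM (adjusted p = 0.124 and 0.134), in DESeq2 (adjusted p = 0.0917), with the replicate block (adjusted p = 0.0648), under total counts (adjusted p = 0.0525) and among high-scoring peaks (adjusted p = 0.0729). Both peaks were called higher at 10 µM against 2 µM, at 0.45 (adjusted p = 0.0342) and 0.44 (adjusted p = 0.0457), and both calls were lost in DESeq2 (adjusted p = 0.0974 and 0.125) and without replicate 1 at 10 µM (adjusted p = 0.219 and 0.392). They were lost too with the replicate block (adjusted p = 0.0597 and 0.0551), under total counts (adjusted p = 0.091 and 0.112) and with only these doses (adjusted p = 0.0594 and 0.0722), and that of NSUN2 among high-scoring peaks (adjusted p = 0.211). The NSUN2 call was lost as well without replicate 1 or 2 at 2 µM or replicate 3 at 0 µM (adjusted p = 0.0937, 0.0909 and 0.05), and the NSUN5 call without any one of the 2 µM or 0 µM replicates (adjusted p from 0.0526 to 0.116). The NSUN5 peak became a lower call at 2 µM against 0 µM without replicate 1 at 0 µM (adjusted p = 0.0434) or either 10 µM replicate (adjusted p = 0.021 and 0.0201), under DESeq2's size factors (adjusted p = 0.0342) and with only these doses (adjusted p = 0.0232). No peak with counts overlapped the window at the YBX1 start, although 1 consensus peak did. The YBX1 peak annotated as promoter, at chr1:42682861-42683361, lay inside the gene, with its centre 693 bases from the start. It had 13.8 to 16.3 CPM at 0 µM, 9.97 to 13.4 CPM at 2 µM, and 16.4 and 16.3 CPM at 10 µM. It was called at 10 µM against 2 µM (log2 0.47, adjusted p = 0.0422), and without either 10 µM replicate the adjusted p was 0.104 and 0.0963. It was 0.131 and 0.0817 without replicate 2 or 3 at 2 µM, and 0.0522 and 0.0592 without replicate 2 or 3 at 0 µM. In DESeq2 it was 0.118, under total counts 0.101, with only these doses 0.0618 and with the replicate block 0.0776.

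NSUN6, whose RNA fell, had promoter peaks at both of its annotated starts. The one at chr10:18651444-18651944 averaged 13.6 ± 2.36 CPM at 10 µM (SD, n = 2) and 17.9 ± 1.48 CPM at 0 µM (SD, n = 3). Its groups did not overlap, and its log2 change of -0.38 had an adjusted p of 0.0736, which became 0.0346 without replicate 1 at 10 µM and 0.0429 without replicate 1 at 0 µM. It was 0.046 under DESeq2's size factors, 0.0337 under total counts and 0.0456 with only these doses. The other, at chr10:18659108-18659608, averaged 45.4 ± 6.03 CPM at 10 µM (SD, n = 2) and 43.9 ± 0.522 CPM at 0 µM (SD, n = 3), a log2 change of 0.05 (adjusted p = 0.776). An intronic peak at chr10:18610447-18610947 was called at 10 µM against 2 µM (log2 0.45, adjusted p = 0.0216), with adjusted p-values of 0.0522 without replicate 1 at 10 µM and 0.0643 without replicate 2 at 2 µM, 0.0591 under total counts and 0.15 among high-scoring peaks. The other intronic peaks of NSUN6 were not called in any comparison. NSUN3 had no peak under its own symbol, but its promoter window was overlapped by a peak annotated to DHFR2 at chr3:94062610-94063110. That peak averaged 39.8 ± 5.21 CPM at 10 µM (SD, n = 2) and 37.0 ± 6.85 CPM at 0 µM (SD, n = 3), a log2 change of 0.10 (adjusted p = 0.612). At NSUN7 the nearest peak centre with counts lay 76867 bases from its start, and that peak carried the symbol RBM47.

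**Figure D4:**
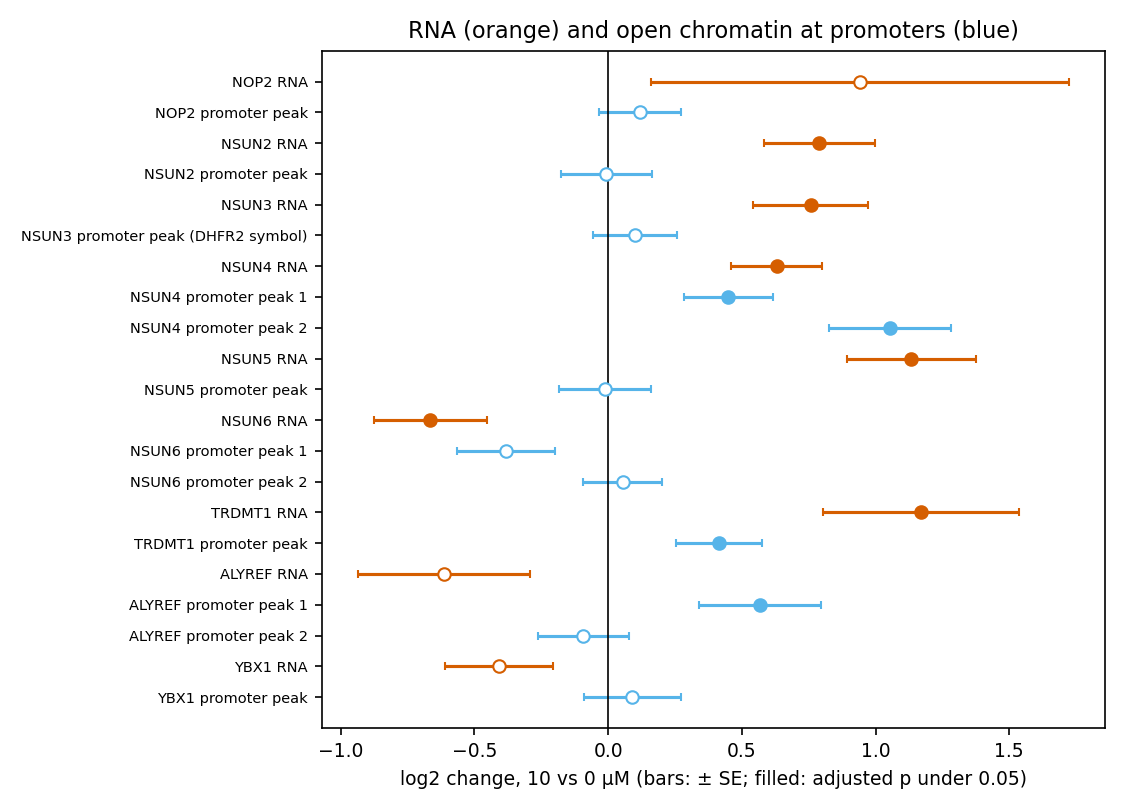
Log2 change at 10 against 0 µM in RNA (orange) and in each peak annotated as promoter (blue) of the 9 tested genes, with bars of ± SE. Filled points have an adjusted p under 0.05, and where a gene has 2 promoter peaks, peak 2 is the one farther upstream. The YBX1 peak lies inside the gene and does not overlap the window at its start. NSUN2, NSUN3 and NSUN5 have an RNA change between 0.76 and 1.13 beside a promoter peak change between -0.01 and 0.10, while NSUN4 and TRDMT1 have filled points for both.

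The promoter windows were searched for 7 short motifs on both strands. A gene is counted when any of its windows holds the motif, while the share of coding genes is per window. NSUN4, NSUN6 and ALYREF had more than 1 window, those of ALYREF nearly the same. CCGGAAG, bound by ETS factors, was present in the windows of ALYREF, NSUN3, NSUN5 and NSUN6, which is 4 of 9 genes, and in 12.8% of the 22199 windows of coding genes. CCAAT, bound by NF-Y, was present in 6 of 9 genes and in 34.7% of coding windows. GGGCGG, the GC box, was present in 5 of 9 genes and in 56.3% of coding windows. CACGTG, the E-box, was in the NOP2 window alone and in 8.34% of coding windows, and TATAAA was in 2 of 9 genes and 9.47%. TGACGTCA and GCATGCGC were in none of the 9, with 2.26% and 3.74% of coding windows. Per window, CCGGAAG was in 6 of 12, CCAAT in 7 of 12, GGGCGG in 7 of 12, CACGTG in 1 of 12 and TATAAA in 3 of 12. Of the 4 genes with CCGGAAG, RNA of NSUN3 and NSUN5 rose, that of NSUN6 fell and that of ALYREF was not called. NSUN4 and TRDMT1, which rose, did not have these letters in their windows.

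Partners and other genes of the modification were followed in a list of 10, all tested. At 10 µM against 0 µM, 1 was called higher and 2 lower, where all genes tested had 23% higher and 25.1% lower, and the median log2 change was -0.15. The same shares of all genes apply to the counts of the other lists at these doses. ALKBH1, which oxidises the cytosine that NSUN3 methylates, averaged 41.5 ± 3.28 CPM at 10 µM and 14.8 ± 1.62 CPM at 0 µM (SD, n = 3 each), a log2 change of 1.49 (adjusted p = 5.25e-05). YBX2, a germ-cell relative of YBX1, averaged 0.229 ± 0.0354 CPM at 10 µM and 2.01 ± 0.407 CPM at 0 µM, a log2 change of -3.12. SRSF2, a splicing factor, was called lower at -0.78 (adjusted p = 0.0154). The SRSF2 call was lost without replicate 1 or 2 at 0 µM (adjusted p = 0.0615 and 0.0599), without replicate 1 or 3 at 10 µM (adjusted p = 0.0593 and 0.0634), and under scaling by total counts (adjusted p = 0.0877).

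ALYREF works in the TREX complex, which loads mRNA onto the export receptor. Of 15 listed genes of that route 13 were tested, and 5 were called higher and 2 lower at 10 µM against 0 µM, with a median of 0.24. NXF1, the export receptor itself, averaged 86.5 ± 13.7 CPM at 10 µM and 35.7 ± 3.13 CPM at 0 µM (SD, n = 3 each), a log2 change of 1.28 (adjusted p = 8.89e-05). FYTTD1, an export adaptor that works beside ALYREF, was higher by 0.75 (adjusted p = 0.00427). NXT1, the partner of NXF1, was lower at -0.92 (adjusted p = 0.012), and so was THOC3, a THO subunit, at -0.81 (adjusted p = 0.0123). Both lower calls were lost without replicate 1 at 0 µM (adjusted p = 0.0611 and 0.0632) and without replicate 2 at 10 µM (adjusted p = 0.0641 and 0.0652), and that of THOC3 also under scaling by total counts (adjusted p = 0.0676). For 10 µM against 2 µM, 4 of 13 were higher and none lower, beside 16.8% and 21.6% of all genes. In the lower direction 1 gene passed 0.05 before adjustment, and none was called by DESeq2. Of all 18999 genes tested, 4931 passed in that direction, and DESeq2 called 4075 lower.

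Other transfer RNA methyltransferases gave 10 higher and 3 lower of 26 tested at 10 µM against 0 µM, with a median of 0.46. ALKBH8, which acts on wobble uridines, averaged 72.9 ± 4.95 CPM at 10 µM and 15.4 ± 5.08 CPM at 0 µM (SD, n = 3 each), a log2 change of 2.24 (adjusted p = 3.6e-05). TRMT61A, the catalytic subunit of an adenosine methyltransferase, was higher by 1.64 (adjusted p = 0.000761), and TRMT44, a uridine ribose methyltransferase in yeast, by 1.13 (adjusted p = 0.000409). TARBP1, a guanosine ribose methyltransferase, was lower at -0.99 (adjusted p = 0.000656). At 2 µM against 0 µM the call in this list was TRMT12, an enzyme of wybutosine synthesis, at 1.33 (adjusted p = 0.0145). It was lost without replicate 2 at 0 µM or replicate 1 or 2 at 2 µM (adjusted p = 0.0514, 0.0634 and 0.0571). No gene of the other lists was called by edgeR at 2 µM against 0 µM. Over those lists 1, 0, 2, 3 and 1 genes of partners, export, m6A, large-subunit and mitochondrial genes had an unadjusted p under 0.05, and DESeq2 called 1 large-subunit gene lower. Of all 18999 genes tested, 3538 had such a p, and DESeq2 called 462 lower.

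Genes of m6A, the methyl mark on adenosine in mRNA, gave 6 higher and 1 lower of 20 at 10 µM against 0 µM, with a median of 0.37. ZCCHC4, which places m6A on ribosomal RNA, was higher by 1.08 (adjusted p = 0.000526), the methyltransferase METTL16 by 1.01 (adjusted p = 0.00109), the writer complex subunit ZC3H13 by 0.86 (adjusted p = 0.00089) and the nuclear reader YTHDC1 by 0.81 (adjusted p = 0.00115). METTL3, also in this list, went the other way, with 50.2 ± 3.15 CPM at 10 µM and 95.5 ± 18.5 CPM at 0 µM (SD, n = 3 each). The lowest log2 change of the list was -0.93. Genes of ribosomal RNA modification and large-subunit assembly, the setting of NOP2 and NSUN5, gave 7 higher and 1 lower of 36, with a median of 0.31. The share called higher was thus near the 23% of all genes, and the share called lower was under their 25.1%. FBL, the ribose methyltransferase of the nucleolus, averaged 23.7 ± 1.46 CPM at 10 µM and 70.7 ± 12.2 CPM at 0 µM (SD, n = 3 each), a log2 change of -1.57 (adjusted p = 3.94e-05). GNL2, a large-subunit assembly factor, was higher by 1.26 (adjusted p = 0.00042), EMG1, a pseudouridine methyltransferase, by 1.06 (adjusted p = 0.000535), and RRP8, which methylates adenosine in the large-subunit rRNA, by 1.04 (adjusted p = 0.000541).

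Genes of mitochondrial ribosomal RNA modification, the setting of NSUN4, gave 3 higher and 2 lower of 11 at 10 µM against 0 µM, beside 23% and 25.1% of all genes, with a median of 0.33. TFB1M, which methylates the same small-subunit RNA as NSUN4 on adenosines, averaged 23.0 ± 1.41 CPM at 10 µM and 99.02 ± 7.54 CPM at 0 µM (SD, n = 3 each), a log2 change of -2.11 (adjusted p = 1.3e-06). NSUN4 and TFB1M thus moved in opposite directions. MRM3, a ribose methyltransferase of the large-subunit RNA, was higher by 0.86 (adjusted p = 0.00461), and FASTKD2, an RNA-binding protein of mitochondria, by 1.01 (adjusted p = 0.00542). METTL17, an assembly factor of the mitochondrial small subunit, was lower at -0.59 (adjusted p = 0.0137), a call lost without replicate 1 at 0 µM (adjusted p = 0.0636) or replicate 3 at 10 µM (adjusted p = 0.0876) and under scaling by total counts (adjusted p = 0.142). MRM1, MRM2, MRM3 and TRMT61B were in this list and in another. At 10 µM against 2 µM, where 16.8% of all genes were higher and 21.6% lower, 1 of the 10 partner genes was called higher and 1 lower. The other transfer RNA methyltransferases gave 8 higher and 3 lower of 26, the m6A genes 7 and 1 of 20, the large-subunit genes 10 and 1 of 36, and the mitochondrial genes 2 and 1 of 11.

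**Figure D5:**
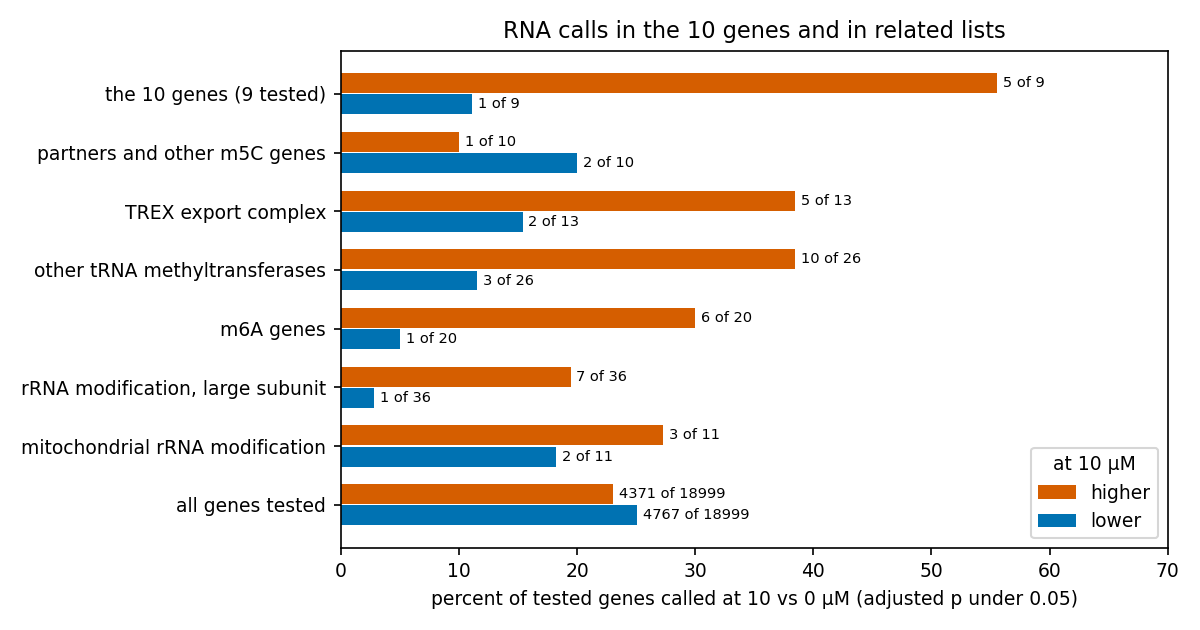
Percent of tested genes called higher (orange) or lower (blue) at 10 against 0 µM in the 10 genes, in 6 related lists and in all genes tested, with the counts beside each bar. The 10 genes have 5 of 9 higher and 1 of 9 lower, and all genes tested have 4371 and 4767 of 18999.

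For each gene called in RNA, the protein-coding genes with the most alike pattern were sought by Pearson's r of log2 CPM over the 9 RNA libraries, among 9266 genes of at least 10 CPM. NSUN2 was closest to MED6 (r = 0.993) and EID2 (r = 0.989), NSUN4 to RUNX1 (r = 0.989) and CUL4A (r = 0.987), and NSUN5 to GTF3C5 (r = 0.994) and MRPS18A (r = 0.992). NSUN3 was closest to ZC3H12C (r = 0.988) and TIMM10B (r = 0.985), TRDMT1 to LRRC8B (r = 0.986) and ZBTB6 (r = 0.983), and NSUN6 to S100PBP (r = 0.985) and FST (r = 0.976). These values describe libraries that share dose and depth, and the closest of 9266 genes is close by selection.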

How the data were processed

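RNA-seq (9 libraries) and ATAC-seq (8 libraries) of HepG2 cells at 0, 2 and 10 µM 5-azacytidine were used; every deposited value column was matched to a sample. The RNA values are raw counts per gene, deposited by the authors; per the labels the RNA libraries were made with a stranded total RNA kit, and no source used here states the strand setting of the counting. The ATAC values are raw counts per peak of 501 bp, deposited by the authors with their annotation of peaks to genes; 58372 of 63621 consensus peaks had counts. The score of each peak was deposited by the authors with no scale and served in 1 alternative. The deposited normalized signal, in which the authors scaled the counts of a library by 1 factor, was used for a check alone: its columns named 10 µM replicates 2 and 3 hold each other's raw counts. The tools DiffBind 3.12.0, DESeq2 1.42.1, HISAT2 2.2.1 and HTSeq 2.0.4 and the hg38 build are named, with no role or order, per the submitters' processing notes.

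Counts were tested with edgeR 4.0.16 (R 4.3.3): TMM scaling, filterByExpr for low counts, 1 quasi-likelihood fit per assay with a mean per dose, and Benjamini-Hochberg adjustment over all features of a comparison, with calls at an adjusted p under 0.05. Each SE was derived from the log2 change and its F statistic. CPM use the TMM-scaled totals. DESeq2 1.42.0 was an alternative. The fits were tested on simulated data. Gene IDs matched a symbol for 62666 of 63187 genes; positions, promoters and motif shares are from RefSeq GRCh38.p14, and positions of peaks are as deposited.

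The 10 genes, the lists and the tests were chosen with earlier results of these data known. All 10 genes are named, with their promoter peaks and any other of their peaks that was called. From each list up to 4 genes with the smallest adjusted p in a comparison are named; names at 10 against 2 µM are given for the 10 genes alone.

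Replicate numbers were checked for pairing through the correlation of deviations from the group means. At 0 and 2 µM in RNA, same-numbered libraries deviated together (r = 0.374, 0.422 and 0.378), and those of unlike number had r from -0.44 to 0.0843. Deviations within a group sum to 0, so positive values for like numbers pull those for unlike numbers below 0 on average. The contrast between them is thus partly built in. The labels give no shared batch, so whether the numbers pair these libraries is not known. The main fit takes them as unpaired, and the replicate block is the alternative. In the other comparisons same-numbered libraries did not deviate together. Alternatives were other scalings, no filter, DESeq2, only the doses compared, the replicate block, each library left out, replicates 3 of the 0 and 2 µM RNA groups left out together, and high-scoring peaks alone; the block over 0 and 2 µM alone was added after seeing the data.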

Additional observations from a re-analysis of the deposited data

How the results depend on the processing

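In RNA, 3 of the 10 calls on the genes (NSUN2, NSUN4 and NSUN5 at 10 against 0 µM) held in every alternative run, and in ATAC 6 of 21 calls on named peaks did. Alternatives were run for the list genes with the smallest adjusted p, up to 4 per list and comparison, those at 10 against 2 µM included: 35 of these 45 calls held in every alternative, and the others kept their direction. Counts of genes called lower at 10 against 0 µM moved to 2 with no filter (ALYREF added), 0 under total counts and 3 without replicates 3 of the 0 and 2 µM groups, and at 10 against 2 µM to 0 under total counts. Of all genes in these fits, 14.1% were called lower at 10 against 0 µM with no filter and 19.7% under total counts. Leaving out 1 RNA library gave 3 to 5 higher and 0 to 3 lower at 10 against 0 µM, 0 to 4 and 0 to 1 at 10 against 2 µM, and 0 in both directions at 2 against 0 µM. Peak counts at 10 against 0 µM were, for higher calls, 4 under total counts, 3 in DESeq2 and 2 among high-scoring peaks, and for lower calls 2 with DESeq2's size factors, 2 under total counts, 1 with only these doses and 1 among high-scoring peaks. At 10 against 2 µM they were 3 higher under total counts, 4 in DESeq2, 5 with only these doses and 1 among high-scoring peaks, and at 2 against 0 µM 1 higher in DESeq2, and 1 lower under total counts, in DESeq2 and among high-scoring peaks. Of all 58372 peaks, DESeq2 called 14566 higher and 14939 lower at 10 against 0 µM. It called 13099 and 14093 at 10 against 2 µM, and 5825 and 2879 at 2 against 0 µM. Shares of all peaks under the other scalings and among high-scoring peaks are not given here. Leaving out 1 ATAC library gave 3 to 7 higher and 0 to 2 lower at 10 against 0 µM, 3 to 8 and 0 at 10 against 2 µM, and 1 to 3 and 0 to 3 at 2 against 0 µM. Of all peaks, 26.0% to 29.9% were then higher and 24.4% to 29.1% lower at 10 against 0 µM. These shares were 22.1% to 27.4% and 21.2% to 28.2% at 10 against 2 µM, and 9.12% to 15.6% and 4.12% to 12.1% at 2 against 0 µM. With the replicate block the peak counts were 6 higher at 10 against 0 µM, 5 higher at 10 against 2 µM and 1 lower at 2 against 0 µM. The shares of all peaks in these directions were 27.9%, 24.4% and 5.58%. The block also turned the uncalled log2 changes of the NSUN2 and NSUN5 promoter peaks at 10 against 0 µM to 0.010 and 0.017, and, over 0 and 2 µM alone, that of NSUN6 RNA to 0.004; it changed no RNA call but that of TRDMT1 at 10 against 2 µM (adjusted p = 0.0231). Other uncalled values near 0 turned sign as well. At 2 against 0 µM these were, in RNA, NSUN2 (-0.016 without replicates 3), NSUN4 (0.134 under total counts, 0.003 with only these doses, 0.103 without replicates 3) and NSUN6 (0.135 under total counts, 0.051 without replicates 3). In ATAC they were the NSUN4 start peak (-0.009 with DESeq2's size factors, -0.018 in DESeq2, -0.006 with only these doses) and the TRDMT1 promoter peak (0.000 among high-scoring peaks). At 10 against 2 µM they were YBX1 RNA (0.002 under total counts) and the intronic NSUN4 peak (-0.028 among high-scoring peaks). At 10 against 0 µM they were the upstream NSUN6 promoter peak (-0.017 under total counts, -0.001 with only these doses, -0.074 among high-scoring peaks) and the NOP2 promoter peak (-0.009 among high-scoring peaks). The cause of these shifts was not tested. Single-library leave-outs turned the sign of values that were not called with all libraries: NOP2 RNA spanned -0.066 to 1.745 and -0.04 to 1.011, NSUN2 -0.111 to 0.297, NSUN4 -0.068 to 0.087, NSUN6 -0.127 to 0.067, TRDMT1 -0.103 to 0.69 and YBX1 -0.16 to 0.011 on the log2 scale. Among promoter peaks at 10 against 0 µM, YBX1 spanned -0.017 to 0.106, the upstream NSUN6 peak -0.109 to 0.096, NSUN2 -0.137 to 0.003, NSUN5 -0.223 to 0.052 and the ALYREF start -0.487 to 0.090, the lowest of which was called (adjusted p = 0.0388). At 2 against 0 µM the NSUN4 start peak spanned -0.114 to 0.105 and the TRDMT1 promoter peak -0.159 to 0.072. For NOP2 and NSUN7, with at most 41 and 10 counts per library, no change in RNA level is read here. NSUN7 did not enter the test, and whether NOP2 reads were assigned to another feature was not tested.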
